A study of Mus musculus with 24 samples.

Results

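Liver pieces kept in formalin for 3 weeks were compared between 4 mice dosed with furan and 4 control mice, 8 of the 24 libraries of a series in which each liver was cut into 3 pieces. The 8 libraries were taken by their labels, as those of the 3-week formalin piece of either treatment. All animals were females of the hybrid strain B6C3F1, common in toxicology studies, with an age of 5 to 6 weeks in the labels. The furan group (animals 41, 42, 43 and 44) was gavaged daily for 21 days with furan in corn oil, at 8 mg/kg/day, the control group (animals 2, 3, 4 and 6) with corn oil alone, and livers were taken 4 hours after the last dose. The 3-week pieces were embedded in paraffin and RNA was extracted from 2 sections of 10 µm with an FFPE (formalin-fixed, paraffin-embedded) kit. The same livers gave a frozen piece, extracted with another kit, and a piece kept in formalin for 18 h, of which 1 section was extracted. Fixation, kit, amount of input and the place in the liver can therefore not be told apart. The labels report low RNA integrity in the fixed pieces. Ribosomal RNA was removed with beads before sequencing of total RNA.

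Furan is a small ring compound that forms when food is heated. In hepatocytes it is oxidized by the cytochrome P450 Cyp2e1 to a reactive dialdehyde, which binds glutathione and proteins. Cells that sense such electrophiles release the transcription factor NRF2 (Nfe2l2) from its inhibitor Keap1, and NRF2 then turns on genes for glutathione supply and conjugation. DNA damage and other stresses stabilize p53, which turns on genes that stop the cell cycle or start cell death. Formalin links RNA to proteins and breaks it into short fragments over time, so that fewer molecules of a gene reach the library.

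The 8 libraries held 5.56 to 11 megacounts (M), 6.90 to 10.9 M in controls and 5.56 to 11 M with furan. Of 24015 gene symbols, 16990 had a count in these libraries and 12983 passed the filter on low counts. Each library correlated with the others of its group at a mean r of 0.878 to 0.891, and no library stood far from the rest. Among 16 library measures (totals, genes detected, shares of abundant RNAs and summed markers of other cell types), 1 had groups that did not overlap, the summed markers of fat, pancreas and intestine, and its values are given below. Alb, the main secreted protein of hepatocytes, had 59854 ± 3367 CPM in controls and 58429 ± 6377 with furan (SD, n = 4). CPM are counts scaled to the normalized library size, as in the plots. Because these are whole pieces of tissue, fewer cells of a type and less RNA per cell cannot be told apart in any value below.

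Furan changed 335 of the 12983 tested genes in the 3-week piece, or 2.58% (edgeR quasi-likelihood test, Benjamini-Hochberg adjusted p below 0.05). Of these, 139 (1.07%) rose and 196 (1.51%) fell. These shares are to be read beside each list count below, and the share called was larger for genes with more counts. A log2 fold change is furan over control, and its median over all tested genes was 0.01. Most changes were moderate: 222 called genes changed at least 1.5-fold and 79 at least 2-fold, 39 of them higher and 40 lower. In 318 of the 335 the 4 furan values did not overlap the 4 control values, which held for 1125 tested genes, or 8.67%. At an unadjusted p below 0.05 there were 1612 genes. Leaving out any single library lowered the count of calls, to 280 or fewer, and the smallest count, 218, was obtained without furan animal 44. Each of these fits also had a smaller group. Whether the group size or the animal left out lowered the count was not tested. The p-values measure the spread between these libraries, each from another animal. Differences between animals and between their pieces or library preparations cannot be told apart in that spread.

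**Figure D1:**
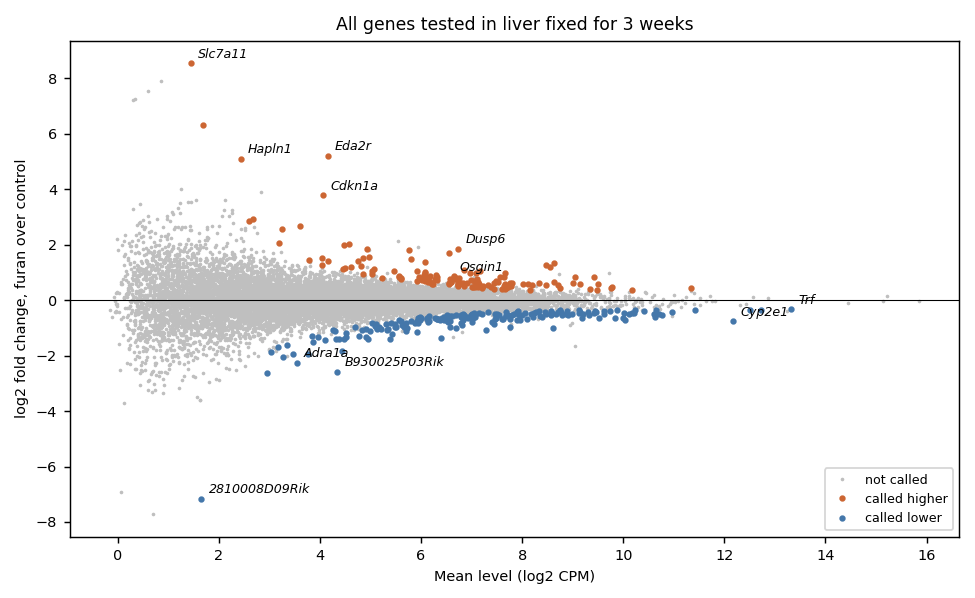
Each point is a tested gene, with its mean level in log2 CPM on the horizontal axis and its log2 fold change, furan over control, on the vertical axis. Orange points are the 139 genes that rose and blue points the 196 that fell. Called genes on the right of the plot lie near the zero line, while called genes on the left have large fold changes.

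The largest rises included the p53 targets Eda2r and Cdkn1a, the NRF2 target Slc7a11, and the early signalling genes Jun and Dusp6. The largest rises and falls were picked among called genes without overlap of the groups, so that trait was part of their choice. Values by animal are given in the order of control animals 2, 3, 4 and 6 and then furan animals 41, 42, 43 and 44. Of 31 tested p53 targets, 8 rose and 0 fell, against 2.58% of all genes called in either direction, and the median log2 fold change of the list was 0.64.

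Cdkn1a, the p53-induced inhibitor of cyclin-dependent kinases, had 2.93, 0, 4.93 and 1.22 CPM in the control livers and 34.0, 34.7, 20.4 and 33.4 CPM in the furan livers. All furan values lay above all control values, and the log2 fold change was 3.79 ± 0.81 (SE; edgeR adjusted p = 0.0488). That call was narrow. It was lost with DESeq2 size factors in the edgeR fit (adjusted p = 0.05001), and without control animal 2 or 6 or without any single furan animal, with edgeR adjusted p between 0.0905 (without furan animal 42) and 0.163 (without control animal 2), while the log2 fold change was between 3.35 (without control animal 3) and 4.45 (without control animal 4). Eda2r, a receptor of the TNF receptor family, had 0, 1.61, 1.01 and 1.09 CPM against 16.5, 28, 49.9 and 42.9 CPM. The groups were far apart, with 33 counts in all control libraries together and 1285 in the furan libraries, and the log2 fold change was 5.20 ± 0.60 (edgeR adjusted p = 6.88e-05).

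The p53 targets with higher levels moved less and with smaller errors. Trp53inp1, a stress-induced partner of p53, had 231, 189, 169 and 249 CPM in controls and 517, 379, 556 and 548 CPM with furan, a 2.38-fold rise (edgeR adjusted p = 1.34e-06). Ccng1, an atypical cyclin, had 71.5, 68.6, 68.3 and 84.5 CPM against 127, 176, 164 and 160.4 CPM, a 2.14-fold rise (edgeR adjusted p = 5.97e-06). Neither gene's groups overlapped. Mdm2, the ubiquitin ligase that removes p53, had 49.1, 38.1, 45.9 and 43.4 CPM against 108, 80.5, 91.7 and 78.9 CPM (edgeR adjusted p = 0.00042). Zmat3, an RNA-binding protein, went from 37.4 ± 9.06 to 96.8 ± 12 CPM (edgeR adjusted p = 2.08e-05). Btg2, an antiproliferative gene, rose with a log2 fold change of 1.22 ± 0.27, and Rps27l, a ribosomal protein paralog, with 1.12 ± 0.28.

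Other p53 targets in the list had large fold changes that the test did not call. Bax, which permeabilizes mitochondria, had 1.51, 4.55, 7.25 and 3.65 CPM in controls and 9.20, 13.4, 20.2 and 13.3 CPM with furan (log2 fold change 1.73 ± 0.49, edgeR adjusted p = 0.0512). Phlda3, an inhibitor of Akt, had 0, 0.758, 0 and 2.68 CPM against 3.40, 7.31, 10.1 and 12.3 CPM (edgeR adjusted p = 0.0895). In both genes the groups did not overlap, and both lay at the low end of the levels measured. The 4632434I11Rik transcript, named Ddias in RefSeq, was no member of the list and had 1.61, 1.04, 3.19 and 0 CPM against 11.8, 9.09, 12.7 and 10.2 CPM (log2 fold change 2.91 ± 0.73, edgeR adjusted p = 0.0226). Its call was lost without control animal 2 or 3 or furan animal 41, 43 or 44, at edgeR adjusted p of up to 0.0958 (without furan animal 43), and its log2 fold change was 3.58 without control animal 4. Limma voom with sample quality weights did not call it either.

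Promoters of called p53 targets were searched because these genes rose together. The search used the p53 half-site, a motif given by its name, on both strands of windows of 300 bases, from 250 before to 50 after each start, in RefSeq GRCm38.p6. Windows were found for 6 of the 8 called p53 targets, and 4 of them held a match (Ccng1, Cdkn1a, Mdm2 and Rps27l). Among the tested members with a window, 11 of 22 held one, against 9.55% of all genes with a window. The stretches below run 5′ to 3′ on the strand of the gene, with 1 match in capitals. They lie at chr17:29090882-29090983 on the plus strand for Cdkn1a, at chr11:40755416-40755517 on the minus strand for Ccng1 and at chr10:117710889-117710990 on the minus strand for Mdm2. The matches begin 51, 185 and 186 bases before the start of the gene. A second match in the Cdkn1a stretch, GGACTAGCTT, begins 73 bases before the start and is in lower case there.
Cdkn1a: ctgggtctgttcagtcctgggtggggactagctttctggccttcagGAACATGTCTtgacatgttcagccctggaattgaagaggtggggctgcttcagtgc
Ccng1: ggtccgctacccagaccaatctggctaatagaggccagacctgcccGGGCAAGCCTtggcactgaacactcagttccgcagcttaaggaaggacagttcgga
Mdm2: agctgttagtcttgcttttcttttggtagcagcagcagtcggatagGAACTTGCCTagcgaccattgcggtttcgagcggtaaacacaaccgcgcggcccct
A match is a stretch of letters and says nothing of binding in these livers.

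Of 34 tested NRF2 targets, 9 rose and 0 fell, with a median log2 fold change of 0.41. Slc7a11, the transporter that brings in cystine for glutathione synthesis, had no count in any control library and 53, 47, 51 and 16 counts in the furan libraries. It was at least 55.2-fold higher against a floor of 3 counts over the control group, a bound that covers counting error only (edgeR adjusted p = 0.0091). Without furan animal 42 the edgeR adjusted p was 0.0599. Gclc, the catalytic subunit of the enzyme that limits glutathione synthesis, had 402, 381, 406 and 322 CPM against 737, 622, 722 and 630.1 CPM. Its groups were well apart, with a 1.79-fold rise (edgeR adjusted p = 4.82e-06). Gsr, which reduces oxidized glutathione, rose with a log2 fold change of 0.66 ± 0.13. With Slc7a11, Gclc and Gsr, 3 of 22 tested genes of glutathione and cysteine supply rose and 0 fell, and the median of that list was 0.17.

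Redox and conjugating enzymes among the NRF2 targets were also called higher. Osgin1, an oxidative stress-induced growth inhibitor, had 57.3, 48.9, 37.0 and 31.0 CPM in controls and 145, 155, 178 and 94.4 CPM with furan (3.28-fold, edgeR adjusted p = 1.69e-05). Srxn1, which repairs oxidized peroxiredoxins, had 25.5, 29.1, 29.6 and 33.8 CPM against 127, 75.7, 67.1 and 59.3 CPM. Furan animal 41 had the highest Srxn1 value, and all 4 furan values lay above the controls (log2 fold change 1.48 ± 0.21, edgeR adjusted p = 6.05e-05). Txnrd1, a thioredoxin reductase, went from 143 ± 25.8 to 254 ± 31.7 CPM (edgeR adjusted p = 0.000227). Ephx1, which hydrolyses epoxides, went from 137 ± 12.6 to 269 ± 37.3 CPM (edgeR adjusted p = 5.32e-06), and Ugdh, which makes UDP-glucuronate for conjugation, from 93.1 ± 15 to 194 ± 31.2 CPM (edgeR adjusted p = 1.69e-05). The glutathione transferase Gstm1 had 462, 422, 445 and 634 CPM against 815, 823, 929 and 967 CPM. Reads of Gstm1 may be shared with its close paralogs.

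The best known NRF2 target, Nqo1, which reduces quinones, was not called and its groups overlapped. It had 11.4, 9.66, 6.52 and 4.74 CPM in controls and 16.8, 9.80, 28.8 and 13.6 CPM with furan (log2 fold change 1.09 ± 0.40, edgeR adjusted p = 0.181). Hmox1, which breaks down heme, had 10.6, 15.5, 24.5 and 19.2 CPM against 145, 47.0, 73.0 and 36.5 CPM, with no overlap (log2 fold change 2.12 ± 0.46, edgeR adjusted p = 0.0552). Furan animal 41 had the highest value of the 4.

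For the NRF2 targets the search used the core TGACNNNGC on both strands of the same windows. Of the 9 called targets 7 had a window and 3 held the core (Srxn1, Txnrd1 and Ugdh), as did 12 of 29 tested members with a window and 13.99% of all genes with a window. The stretches for Txnrd1, at chr10:82859068-82859168 on the plus strand, and Ugdh, at chr5:65435920-65436020 on the minus strand, are shown with 1 match in capitals. The match begins 92 bases before the start in Txnrd1, where it is read on the opposite strand, and 132 bases before it in Ugdh. A second match in the Ugdh stretch, GCGTGGTCA, read on the opposite strand, begins 94 bases before the start and is in lower case there.
Txnrd1: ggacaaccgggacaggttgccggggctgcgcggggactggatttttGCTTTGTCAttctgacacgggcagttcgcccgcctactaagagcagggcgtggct
Ugdh: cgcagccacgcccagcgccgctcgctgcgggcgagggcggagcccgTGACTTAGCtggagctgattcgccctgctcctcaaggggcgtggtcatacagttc
In Ephx1, Gstm1, Osgin1 and Slc7a11 the letters did not occur in the window.

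**Figure D2:**
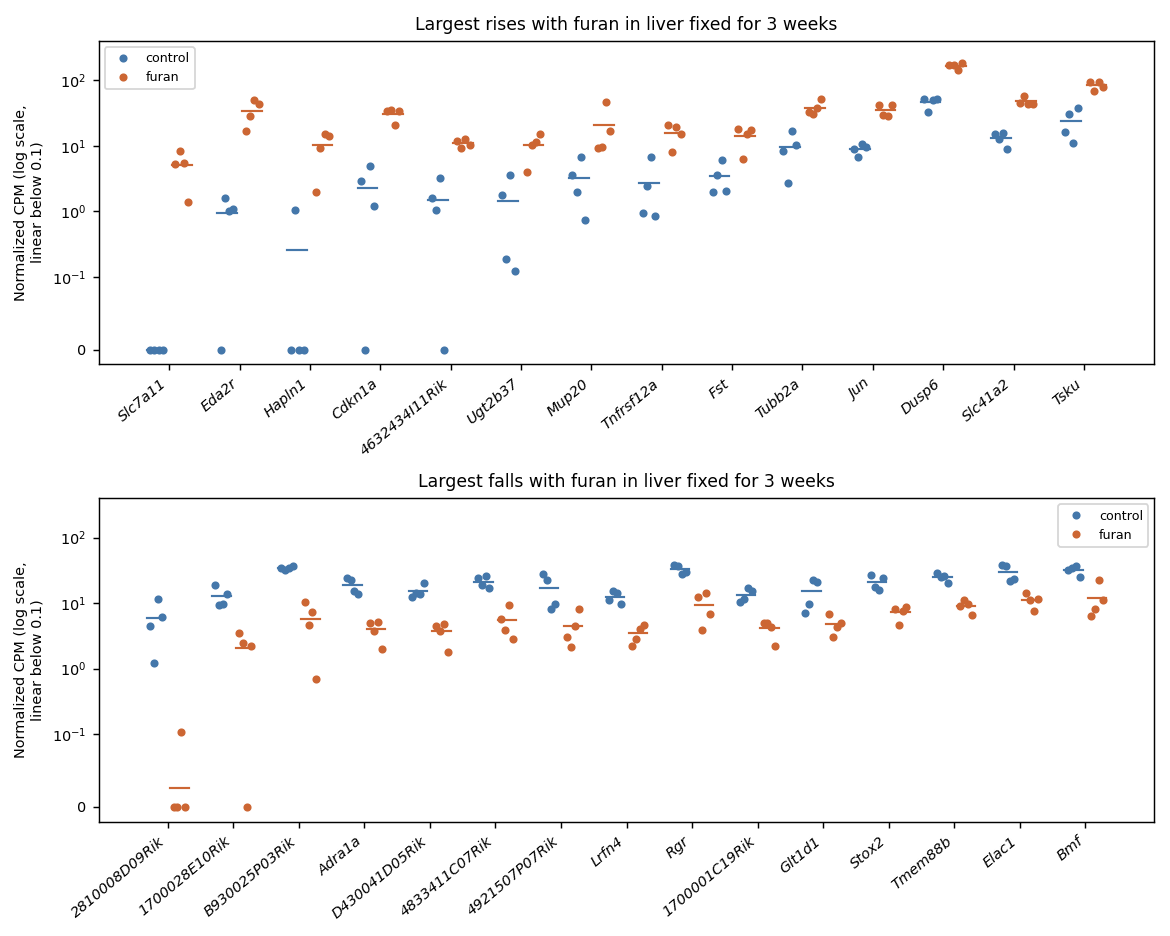
Normalized CPM of 14 of the largest rises (upper panel) and the 15 largest falls (lower panel) among called genes with a mean of at least 1 log2 CPM and no overlap between the groups. Each point is 1 liver, blue for control and orange for furan, horizontal lines are means of 4, and the axis is logarithmic above 0.1 and linear below it. Slc7a11 sits at 0 in all control livers, and Hapln1 in 3 of 4.

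Early response genes and signalling genes rose as well. Of 21 tested immediate early genes, 4 rose (Jun, Dusp6, Fosl2 and Klf6) and 0 fell, with a median log2 fold change of 0.56, and DESeq2 called 7 higher. Dusp6, the phosphatase that turns off ERK, had 50.8, 32.2, 49 and 51.8 CPM in controls and 168, 169, 145 and 185 CPM with furan. The rise was 3.63-fold with a narrow spread in the furan group (edgeR adjusted p = 2.6e-09). Jun, a subunit of the AP-1 transcription factor, had 8.99, 6.72, 10.4 and 9.48 CPM against 41.5, 29.6, 28 and 41.8 CPM (3.96-fold, edgeR adjusted p = 8.37e-05). Fosl2, another AP-1 subunit, had 6.34, 16.9, 19.4 and 17.5 CPM against 62.7, 45.3, 24.7 and 37.9 CPM (edgeR adjusted p = 0.007). The groups did not overlap in any of the 3 genes. Myc, a growth-promoting transcription factor, was near 0 in 3 control livers (0.189, 0.284 and 0 CPM) and had 3.19 CPM in control animal 4, against 3.5, 11, 26.1 and 11.1 CPM with furan. It was not called (edgeR adjusted p = 0.0559).

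Receptors and secreted factors among the largest rises were Tnfrsf12a, Fst and Tsku. Tnfrsf12a, the receptor of the cytokine TWEAK, had 0.947, 2.46, 6.67 and 0.851 CPM in controls and 20.5, 8.02, 19.3 and 15.3 CPM with furan (log2 fold change 2.56 ± 0.56, edgeR adjusted p = 0.00862), and without control animal 4 the log2 fold change was 3.45. Tsku, a secreted protein with leucine-rich repeats, had 16.2, 30.2, 10.9 and 38.2 CPM against 95.5, 68.1, 94.3 and 77.8 CPM (3.51-fold, edgeR adjusted p = 0.00462). Neither gene's groups overlapped. Fst, which binds and blocks activins, went from 3.44 ± 1.92 to 14.2 ± 5.51 CPM (edgeR adjusted p = 0.0183). The Fst call was lost without control animal 2 or 6 or furan animal 41, 43 or 44, at edgeR adjusted p of up to 0.0967 (without furan animal 41). It was also lost with limma voom and sample quality weights. Slc41a2, a magnesium transporter, had 15.1, 12.7, 15.7 and 8.88 CPM against 44.3, 57.7, 44 and 43.7 CPM (3.62-fold, edgeR adjusted p = 3.23e-05).

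The cytoskeleton and the matrix each had called genes on the higher side. Of 26 tested tubulin and actin genes, 4 rose and 0 fell (median log2 fold change 0.28). Tubb2a, a beta tubulin, had 8.33, 2.65, 16.5 and 10.1 CPM in controls and 32.4, 30.3, 37.4 and 51.3 CPM with furan (4.07-fold, edgeR adjusted p = 0.00331). Myh9, a nonmuscle myosin, had 161, 174, 186 and 177 CPM against 258, 278, 294 and 244 CPM, and Actb, beta actin, 799, 661, 768 and 730.4 CPM against 991, 1036, 961 and 1002 CPM. Both rises were small but without overlap (log2 fold changes 0.62 ± 0.11 and 0.43 ± 0.09).

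Of 34 tested genes of matrix and stellate cells, 2 rose, and the list's median was -0.01 while its mean was 0.55. Hapln1, which links hyaluronan to proteoglycans, was 1 of them, with 0, 1.04, 0 and 0 CPM in controls against 2.00, 9.27, 14.9 and 14.1 CPM with furan, or 11 counts in control livers and 375 in furan livers (edgeR adjusted p = 0.00698). Control animal 3 held all 11 control counts, so without it the control group was at 0. Hapln1 passed the filter on low counts only through its furan libraries, where it was high. The Hapln1 call was lost with limma voom and sample quality weights (adjusted p = 0.106). Without furan animal 41 or without furan animal 44, 1 member of the list was called, and without control animal 4, 4 were.

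No member of 31 tested cell cycle genes was called, at a median log2 fold change of 0.44, and 2 had an unadjusted p below 0.05 in edgeR. The DESeq2 test also called none of them, and edgeR without control animal 3 called 1. Over all alternative settings, Nusap1 passed the threshold in 3, and Mcm7, Cdk1 and Ccne1 in 1 each. Among 20 tested heat shock genes and chaperones, Hspb8, a small heat shock protein, was the 1 called, and its groups overlapped. The median of that list was 0.47, and 11 members had an unadjusted p below 0.05. The Hspb8 call was lost without control animal 2, 3 or 4 or furan animal 41, 42 or 43. Of 25 tested genes of ATF4 and the ER stress response, 0 were called by edgeR, 5 had an unadjusted p below 0.05 and DESeq2 called 1. Without control animal 2, edgeR called 3 of them higher.

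**Figure D3:**
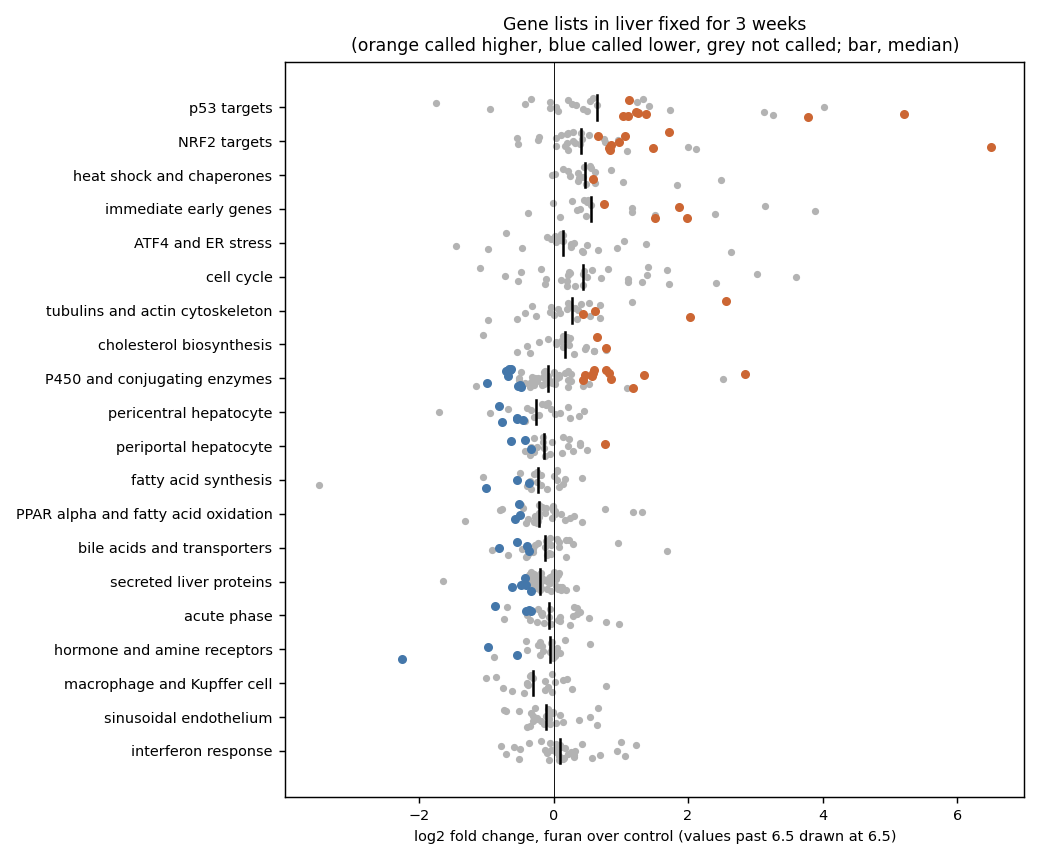
Each point is a tested gene of the list named on the left, placed by its log2 fold change, furan over control, with orange for called higher, blue for called lower and grey for not called. The black bar is the list's median. The p53 and NRF2 lists have called genes only on the right (8 and 9), the pericentral and secreted lists only on the left (5 and 5), and the P450 list on both sides (11 and 10). Slc7a11, a value fitted against no control count, is drawn at the right edge.

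Hepatocyte functions moved in both directions. Of 59 tested P450 and conjugating enzymes, 11 rose and 10 fell, and the list had a median log2 fold change of -0.08 and a mean of 0.07. Cyp2e1, the P450 that activates furan, had 5955, 5006, 6107 and 6153 CPM in controls and 3682, 3623, 3409 and 2919.6 CPM with furan. The fall was 1.70-fold without overlap (log2 fold change -0.77 ± 0.08, edgeR adjusted p = 1.34e-06). Cyp2a4, a steroid hydroxylase, had 213, 178, 238 and 287 CPM against 505, 438, 543 and 593 CPM, a 2.27-fold rise (edgeR adjusted p = 1.34e-06). Cyp3a11, a major drug-metabolizing P450, had 2020.5, 2188, 1992 and 2636 CPM against 2837, 2528, 3119.5 and 3462 CPM. Its groups overlapped (log2 fold change 0.44 ± 0.10, edgeR adjusted p = 0.0104), and the call was lost without control animal 2 or 4 or furan animal 43 or 44, at adjusted p of up to 0.0659. The Cyp3a11 call was also lost with limma voom and with all 24 libraries in the fit.

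Families split by member. Among glucuronosyltransferases, which attach glucuronate to drugs and steroids, Ugt2b35 had 211, 244, 232 and 211 CPM in controls and 562, 576, 565 and 587 CPM with furan. This was a 2.55-fold rise with the furan values close to each other (edgeR adjusted p = 2.65e-10). Ugt2b5 and Ugt2b34 rose with log2 fold changes of 0.57 ± 0.12 and 0.46 ± 0.09, while Ugt2a3 fell by 0.68 on the log2 scale. Ugt2b37 had 1.8, 0.189, 3.62 and 0.122 CPM against 4.00, 10.3, 11.5 and 15.1 CPM (edgeR adjusted p = 0.0498). The Ugt2b37 call was lost without control animal 2, 3 or 6 or furan animal 42, 43 or 44, at adjusted p of up to 0.231 (without furan animal 44), and its log2 fold change of 2.85 ± 0.80 was 3.81 without control animal 4. It was also lost with DESeq2 size factors, upper quartile scaling, a mean count of at least 20, a dispersion that was not robust and limma voom, at adjusted p of 0.0513 to 0.125 (limma voom).

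Among carboxylesterases, which cleave ester drugs and lipids, Ces1g and Ces2e rose (log2 fold changes 0.60 ± 0.13 and 0.78 ± 0.12), and Ces1e, Ces1f, Ces2a, Ces3a and Ces3b fell by 0.69, 0.70, 0.64, 0.63 and 0.66 on the log2 scale. The aldehyde dehydrogenases Aldh1a1 and Aldh1a7 rose with log2 fold changes of 0.59 ± 0.10 and 0.82 ± 0.13. The P450s Cyp2b9, Cyp2c38, Cyp2c54 and Cyp2d9 fell by 0.48, 0.53, 0.50 and 0.99 on the log2 scale, and Cyp3a44 rose with 0.86 ± 0.18. Members of these families are close in sequence, so reads may be split or shared between them, and the counting of such reads is not given in the sources used here.

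Genes of the pericentral zone, the hepatocytes around the central vein where Cyp2e1 is made, fell in 5 of 24 tested members and rose in 0 (median log2 fold change -0.26), and DESeq2 called 9 lower. Glul, glutamine synthetase, had 1409.7, 1196, 1259 and 1456 CPM in controls and 943, 1002, 997 and 938 CPM with furan. Nr1i3, the nuclear receptor CAR that governs drug metabolism, had 101, 97.0, 120.3 and 152 CPM against 70.1, 63.6, 89.6 and 45.4 CPM. Neither gene's groups overlapped (edgeR adjusted p = 0.00275 for Glul and 0.0104 for Nr1i3). Oat, ornithine aminotransferase, and Slc1a2, a glutamate transporter, fell by 0.55 and 0.54 on the log2 scale.

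In the periportal zone 3 of 24 tested genes fell (Pck1, Pigr and Serpina1c) and 1 rose (Aldh1b1), with a median of -0.14. Without control animal 2 or furan animal 44, 1 fell, and without furan animal 42, 2 rose. Pigr, the receptor that carries immunoglobulin A into bile, had 1348, 1238, 1249.8 and 1124 CPM against 886, 925, 775 and 605 CPM (edgeR adjusted p = 0.000609). Pck1, of gluconeogenesis, fell by 0.34 on the log2 scale, a call lost without control animal 2 or 6 or furan animal 41 or 44 (edgeR adjusted p of up to 0.118). Serpina1c, one of several near-identical antitrypsin genes, had a log2 fold change of -0.42 ± 0.10, and its call was lost without control animal 2 (adjusted p = 0.0962) or furan animal 44 (adjusted p = 0.0658).

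The lists of fatty acid synthesis and of PPAR alpha had called members on the lower side, and the list of cholesterol synthesis on the higher side. Of 24 tested genes of fatty acid synthesis, 3 fell (Acacb, Elovl2 and Dgat2) and 0 rose, with a median log2 fold change of -0.23, and DESeq2 called 5 lower. Acacb, the acetyl-CoA carboxylase that makes malonyl-CoA at mitochondria, had 117, 123, 134 and 174 CPM in controls and 57.4, 75.4, 79.8 and 61.8 CPM with furan (edgeR adjusted p = 0.000142). Mlxipl, the transcription factor ChREBP that turns on lipogenic genes with glucose, had 357, 300.3, 381 and 300.1 CPM against 195, 264, 186 and 199 CPM (edgeR adjusted p = 0.0012). Both falls were without overlap. Mlxipl was the 1 called member of 35 tested liver transcription factors and nuclear receptors, a list that does not include Nr1i3. That is near the 2.58% called among all tested genes. DESeq2 called 3 of that list lower, and edgeR called 2 lower and 1 higher without furan animal 42 and 1 higher without furan animal 43.

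Of 35 tested genes of PPAR alpha and fatty acid oxidation, 3 fell (Acaa1b and Acsl1 among them) and 0 rose, with a median of -0.21. DESeq2 called 6 lower, and without control animal 3 edgeR called 1 higher. Acsl1, which activates long fatty acids, had 2320.1, 2134, 2015 and 1755 CPM against 1707, 1340.3, 1339.7 and 1356 CPM (edgeR adjusted p = 0.00155). Of 24 tested genes of cholesterol synthesis, 2 rose: Insig1, a brake on that pathway, and Sqle, squalene epoxidase (log2 fold changes 0.65 ± 0.10 and 0.78 ± 0.18). Without control animal 6 or furan animal 41 or 43, Sqle was not called and 1 member was left.

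Of 30 tested genes of bile acid synthesis and of transport, 4 fell, all of them transporters, and 0 rose, with a median log2 fold change of -0.12. Slco2b1, which takes up organic anions, had 238, 195, 215 and 212 CPM in controls and 127, 112, 123 and 129.9 CPM with furan, a 1.75-fold fall (edgeR adjusted p = 7.64e-05). The others were Slc10a1, the bile acid importer, Abcb11, the bile salt export pump, and Abcc6, with log2 fold changes of -0.37 ± 0.10, -0.40 ± 0.10 and -0.54 ± 0.13. The Slc10a1 call was lost with a dispersion that was not robust (edgeR adjusted p = 0.0585) and without any single library but that of furan animal 41, at up to 0.106 (without furan animal 44). The Abcb11 call was lost without control animal 2, 3 or 4 or furan animal 43 or 44, at up to 0.0919 (without control animal 2), and the Abcc6 call without furan animal 41 (0.0696). The count was 2 without control animal 2 or 3 or without furan animal 43 or 44, and DESeq2 called 7. Without furan animal 42, 1 member rose.

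Of 52 tested secreted proteins, 5 fell (Trf, Fetub, F2, F5 and Itih1) and 0 rose, with a median of -0.20. Among all tested genes 1.51% fell, and of the 409 with 3000 counts or more 53 did. Trf, transferrin, had 11805, 11787, 11532 and 10525 CPM in controls and 9093, 9916, 9380.0 and 7883 CPM with furan, a 1.26-fold fall (edgeR adjusted p = 0.00907). F5, coagulation factor V, went from 1387 ± 62.4 to 995 ± 114 CPM (edgeR adjusted p = 0.00227). The groups of Trf and F5 did not overlap, and those of Fetub and Itih1 did. The Fetub call was lost without 6 of the 8 libraries, at edgeR adjusted p of up to 0.145 (without control animal 2). It was also lost with limma voom and with a dispersion that was not robust. The count of 5 fell to 2 without control animal 4 or furan animal 44, and to 3 without control animal 2 or 6 or furan animal 41. DESeq2 called 9 lower and 1 higher.

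Of 29 tested acute phase genes, 4 fell (C3, C4b, Cfb and Mt2), with a median of -0.08. C3, the central complement component, had 7627, 7202, 7879.9 and 7395 CPM against 5479, 6677, 6305 and 5313 CPM (edgeR adjusted p = 0.0104). This count was lower in fits that left out some single libraries: it was 0 without control animal 4, 1 without furan animal 41 or 44, and 2 without control animal 2 or 3 or furan animal 43. In DESeq2, without control animal 2 or without furan animal 44, 1 member rose.

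Of 29 tested genes of growth hormone response and urinary proteins, 1 rose, at a list median of -0.16. It was Mup20, a urinary pheromone carrier, with 3.6, 1.99, 6.67 and 0.73 CPM in controls and 9.20, 9.44, 46.7 and 16.9 CPM with furan (log2 fold change 2.68 ± 0.63, edgeR adjusted p = 0.0278). Furan animal 43 had by far the highest value, and without it the log2 fold change was 1.88 (adjusted p = 0.164). The call was also lost without control animal 2 or 3 or furan animal 44, and with limma voom. Mup20 is a member of a family of related urinary protein genes, with which its reads may be shared. DESeq2 called 2 members of the list lower, and edgeR 1 without control animal 3 or furan animal 42.

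Receptors for hormones and amines fell in 3 of 23 tested members. Adra1a, the alpha-1A adrenergic receptor, had 24.0, 22.3, 15.2 and 13.9 CPM in controls and 5.00, 3.74, 5.12 and 1.99 CPM with furan. The groups were far apart, a 4.75-fold fall (log2 fold change -2.25 ± 0.42, edgeR adjusted p = 0.00183). Lepr, the leptin receptor, and Gcgr, the glucagon receptor, fell by 0.97 and 0.55 on the log2 scale. Without control animal 4 or furan animal 42, Adra1a was the 1 member called, and the adjusted p of Lepr and Gcgr was then 0.0867 and 0.0713, or 0.0543 and 0.105. The Gcgr call was also lost without control animal 2 or 6 or furan animal 43 or 44, and with libraries thinned to the smallest total.

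Several of the largest falls were in genes of which little is known. B930025P03Rik, a long noncoding RNA, had 34.5, 32.4, 34.1 and 36.7 CPM in controls and 10.3, 4.63, 7.36 and 0.693 CPM with furan, a 5.98-fold fall (edgeR adjusted p = 0.0112). Its call was lost without control animal 4 or furan animal 42 or 43, at adjusted p of up to 0.0827. In RefSeq GRCm38.p6 it lies on chromosome 8 beside another noncoding RNA, 4833411C07Rik, with 1 gene model, Gm2814, between them. 4833411C07Rik had 24.0, 18.9, 25.5 and 17.0 CPM against 5.70, 3.92, 9.50 and 2.86 CPM (3.87-fold lower, edgeR adjusted p = 0.00404). Both had no overlap, as the choice of the largest falls required, and the lowest furan value of each was in animal 44.

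Long noncoding RNAs were called on 1 side, at a share near that of all genes. Of 483 tested (by RefSeq class), 14 fell (2.9%) and 0 rose, and their median log2 fold change was -0.22. Among 12258 tested protein-coding genes 2.59% were called, with 139 rises and 178 falls (1.45%) and a median of 0.02. Xist, the noncoding RNA that silences an X chromosome in females, had 6958, 6662, 6233 and 6269 CPM in controls and 5217, 4822, 5364 and 4842 CPM with furan (1.29-fold lower, edgeR adjusted p = 0.00359). Its groups did not overlap. Of 17 tested long nuclear RNAs, Xist and Tug1 fell, and without any 1 library other than control animal 6 the count was 1. The strand setting of the counting is not given in the sources used here, so reads of a noncoding gene and of a gene on the other strand cannot be told apart.

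Among the protein-coding falls, Rgr, an opsin-like receptor, had 37.9, 37.0, 27.8 and 30.3 CPM in controls and 12.3, 3.92, 14.2 and 6.84 CPM with furan (3.54-fold, edgeR adjusted p = 0.00137). Bmf, a BH3-only inducer of cell death, had 32.5, 34.0, 36.4 and 25.3 CPM against 6.40, 8.02, 22.5 and 11.2 CPM (edgeR adjusted p = 0.0128). The Bmf call was lost without furan animal 41 or 44 (adjusted p = 0.0581 and 0.0549). Tmem88b, Elac1, a tRNA-processing enzyme, and Stox2 had log2 fold changes of -1.44 ± 0.32, -1.42 ± 0.31 and -1.52 ± 0.36. Stox2 was not called without control animal 2 (edgeR adjusted p = 0.0644). D430041D05Rik was not called without control animal 6 (adjusted p = 0.0642). The falls of 1700028E10Rik, 4921507P07Rik, Lrfn4, 1700001C19Rik and Glt1d1 each lost their call without any of at least 5 of the 8 libraries. Their edgeR adjusted p was then up to 0.148 (without control animal 2), 0.159 (control animal 2), 0.142 (control animal 3), 0.132 (control animal 4) and 0.222 (control animal 4).

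Genes of other cell types were not called in most lists. Of 21 tested macrophage and Kupffer cell genes 0 were called, with a median log2 fold change of -0.31 and 3 at an unadjusted p below 0.05. DESeq2 called none of them either. Of 27 tested genes of sinusoidal endothelium 0 were called by edgeR (median -0.11, 4 at an unadjusted p below 0.05) and 1 by DESeq2. Summed endothelial markers were 1523 to 1629 CPM in controls and 1349 to 1563 CPM with furan (exact permutation p = 0.0857). Of 16 tested chemokine and adhesion genes 1 fell, Cxcl12, and without control animal 2 or 3 or furan animal 41, 43 or 44 none was called. None of 34 interferon response genes and none of 21 clock genes was called by the main edgeR test or by DESeq2, and 3 of each had an unadjusted p below 0.05. The interferon response genes Tap1 and Cxcl10 and the clock gene Per1 each passed the threshold in 1 alternative setting. Of 24 listed lymphocyte genes 11 were tested, of 16 bile duct genes 6, of 12 neutrophil genes 1 and of 10 erythroid genes 1, and none was called or had an unadjusted p below 0.05 in edgeR.

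The summed markers of fat, pancreas and intestine were 45.2 to 58.7 CPM in controls and 26.1 to 42.6 CPM with furan, without overlap (exact permutation p = 0.0286, the smallest that 4 against 4 can give, adjusted p = 0.457, which is the smallest that 1 such measure among 16 can reach). Only Fabp2, an intestinal fatty acid carrier, and Cela1, an elastase, of the 14 markers passed the filter, and neither was called. Adipoq, Plin1, Prss2, Cpa1, Pnlip, Amy2a5, Ctrb1, Cdx2 and Lct had 0 counts in all 8 libraries. Most of the difference was in Fabp2, at 29.8 ± 2.12 and 15.8 ± 4.03 CPM. The hemoglobin genes Hba-a1 and Hbb-b1 also had 0 counts in all 8 libraries. Summed erythroid markers were 22.5 to 26.9 CPM in controls and 12.9 to 29.8 CPM with furan. How reads shared between similar hemoglobin genes were counted is not given in the sources used here. The 0 counts therefore do not show an absence of blood.

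The share of genes called is given here by the count of the gene. Of 1757 tested genes with a mean of 10 to 30 counts per library, 3 were called (0.171%), and the smallest change among those had a size of 6.30 on the log2 scale. At 100 to 300 counts 43 of 3377 were called (1.27%), the smallest at a size of 0.83. At 3000 counts or more 71 of 409 were called (17.4%), the smallest at a size of 0.33, and 53 of those 71 fell. The median SE of the log2 fold change went from 1.43 at 10 to 30 counts to 0.10 at 3000 or more.

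The low counts spread more between libraries than counting error alone would give. Among 1995 genes with a mean of 10 to 30 counts, 20.2% of values in the 3-week libraries were 0. In the frozen and 18 h libraries, thinned to the total of the same animal's 3-week library, 0.0818% and 0.344% of such values were 0. A gene with both a value of 0 and a value of at least 30 made up 69.2% of these genes in the 3-week piece, against 0.436% and 0.612%. The median coefficient of variation within controls was 88.5%, against 36.5% and 32.9%. Counting error for means of this size would give 0.00454% of values at 0. The single 0 values of Cdkn1a in control animal 3 and of Eda2r in control animal 2 are to be read beside these shares. Slc7a11 passed the filter on its furan counts alone, and its 0 counts in all control libraries are to be read in the same way. So are the 0 counts of Hapln1 in all control libraries but that of animal 3. The bound on the fold of Slc7a11 covers counting error only and not this larger spread. Whether reads were freed of PCR duplicates is not given in the sources used here.

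**Figure D4:**
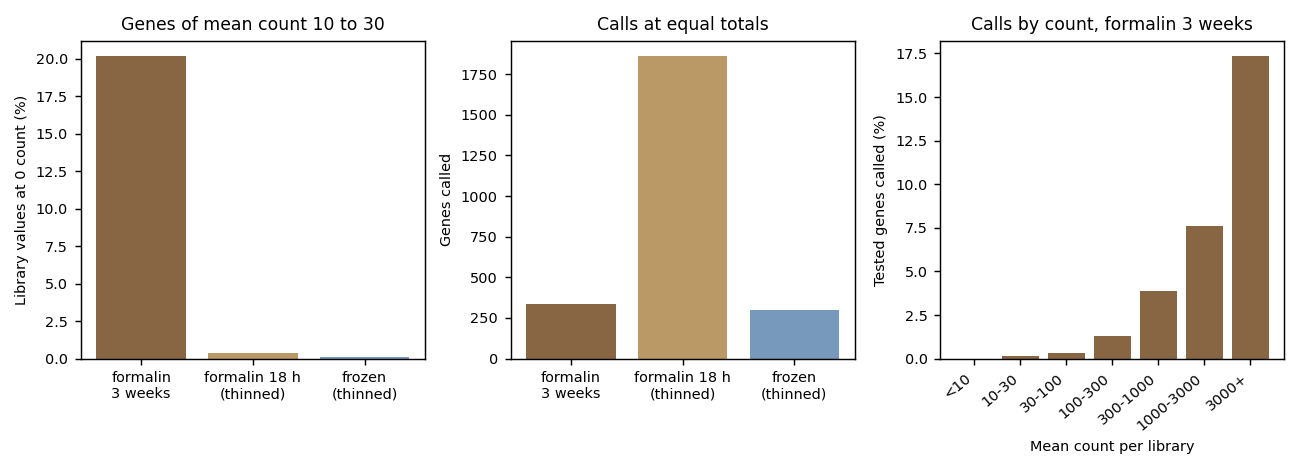
Left, the percentage of library values at 0 counts among genes with a mean of 10 to 30 counts, in the 3-week libraries (20.2%) and in the 18 h (0.344%) and frozen (0.0818%) libraries thinned to the same totals. Middle, the number of genes called at equal totals (335, 1862 and 298). Right, the percentage of tested genes called in the 3-week piece by mean count per library, which goes from 0 below 10 counts to 17.4% at 3000 or more.

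The other pieces of the same livers had 392 of 14122 tested genes called in frozen tissue (2.78%) and 2208 of 14204 in the 18 h piece (15.5%). Thinned to the 3-week totals they had 298 and 1862. The biological coefficient of variation estimated by edgeR over all genes was 0.469 in the 3-week piece and 0.189 and 0.118 in the thinned frozen and 18 h libraries. The pieces come from the same animals, so their fold changes are given side by side and no overlap is counted.

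For named p53 and NRF2 targets the log2 fold changes of the 3 pieces stand side by side. Cdkn1a had log2 fold changes of 3.79 ± 0.81 (3 weeks), 4.40 ± 0.29 (frozen) and 4.11 ± 0.27 (18 h), Eda2r 5.20 ± 0.60, 4.45 ± 0.46 and 4.09 ± 0.36, and Mdm2 1.03 ± 0.17, 1.04 ± 0.11 and 0.85 ± 0.08. The SE of the low-level Cdkn1a was larger in the 3-week piece than in the other pieces. Phlda3, not called at 3 weeks with 3.26 ± 1.01, was called in frozen tissue with 3.56 ± 0.38 and in the 18 h piece with 2.93 ± 0.30. These low-level genes had the larger errors at 3 weeks. Among NRF2 targets, Srxn1 had 1.48 ± 0.21, 1.25 ± 0.15 and 1.35 ± 0.09, and Gclc 0.84 ± 0.10, 0.79 ± 0.14 and 0.82 ± 0.10. Gsr had 0.66 ± 0.13, 0.43 ± 0.14 (not called) and 0.21 ± 0.07 (called). Slc7a11 had a log2 fold change of 3.29 ± 0.70 in the 18 h piece and was not tested in frozen tissue on its own. At 3 weeks it was at least 55.2-fold higher, which is a fold and no log2 value, and a bound that covers counting error only. The edgeR interaction for Slc7a11 gave adjusted p of 0.356 against the 18 h piece. Nqo1 had 1.09 ± 0.40 at 3 weeks and was called in the other pieces, with 1.21 ± 0.16 in frozen and 1.25 ± 0.13 in 18 h tissue. Cyp2e1 had -0.77 ± 0.08, -0.71 ± 0.12 and -0.63 ± 0.07.

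For some other genes the values lay further apart. Adra1a had -2.25 ± 0.42 at 3 weeks, -1.11 ± 0.17 in frozen and -1.26 ± 0.14 in 18 h tissue. Myh9 had 0.62 ± 0.11, 0.09 ± 0.24 and 0.20 ± 0.07, and Xist -0.37 ± 0.07, -0.02 ± 0.18 and -0.21 ± 0.06. Abcc6 fell less at 3 weeks, with -0.54 ± 0.13 against -1.14 ± 0.26 and -1.02 ± 0.06. In the test of the difference itself none of these passed: against the frozen piece the adjusted p was 0.505 for Myh9 and 0.536 for Xist (edgeR interaction). A p that misses the threshold does not show that the pieces are alike.

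The furan effect at 3 weeks differed from that in the frozen piece in 4 of 14901 tested genes (0.0268%) and from that in the 18 h piece in 5 (0.0336%), in an edgeR interaction over all 24 libraries. At an unadjusted p below 0.05 there were 1261 and 1156. Among these, 2810008D09Rik, Crip1 and Gm11992 were called in both, and 3110045C21Rik against the 18 h piece. With the animal as replicate block the calls were 2 and 3, with 2810008D09Rik in both and Crip1 against the 18 h piece. A fit on only the 16 libraries compared gave 0 calls against either piece, with adjusted p for 2810008D09Rik of 0.135 and 0.158. Each of these fits takes a shared dispersion per gene over the pieces in it. The coefficient of variation given above was larger in the 3-week piece, so its spread may be understated there.

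The calls of 2810008D09Rik, Crip1 and Gm11992 rest on groups at or near 0 counts. 2810008D09Rik, a long noncoding RNA named Snhg20 in RefSeq, had 47, 13, 81 and 51 counts in control and 0, 0, 1 and 0 counts in furan livers at 3 weeks. The ratio of the summed counts was 193, with a 95% counting interval from 34.3 to 7681 (edgeR adjusted p = 0.00693), and the call was lost without control animal 4 (adjusted p = 0.0925) and with limma voom. The frozen piece had 89, 56, 114 and 103 counts in control and 72, 62, 77 and 77 in furan livers, and its log2 fold change there was -0.47 ± 0.24 and not called. Crip1, a small LIM-domain protein, had 0 counts in all 3-week controls and 20, 22, 5 and 33 with furan, while frozen livers had 79, 97, 164 and 73 counts in control and 106, 96, 154 and 118 with furan. Gm11992 had 22, 11, 36 and 26 counts in 3-week controls and 0 in all 4 furan livers, against 125, 146, 127 and 116 and then 89, 56, 61 and 68 counts in frozen tissue.

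**Figure D5:**
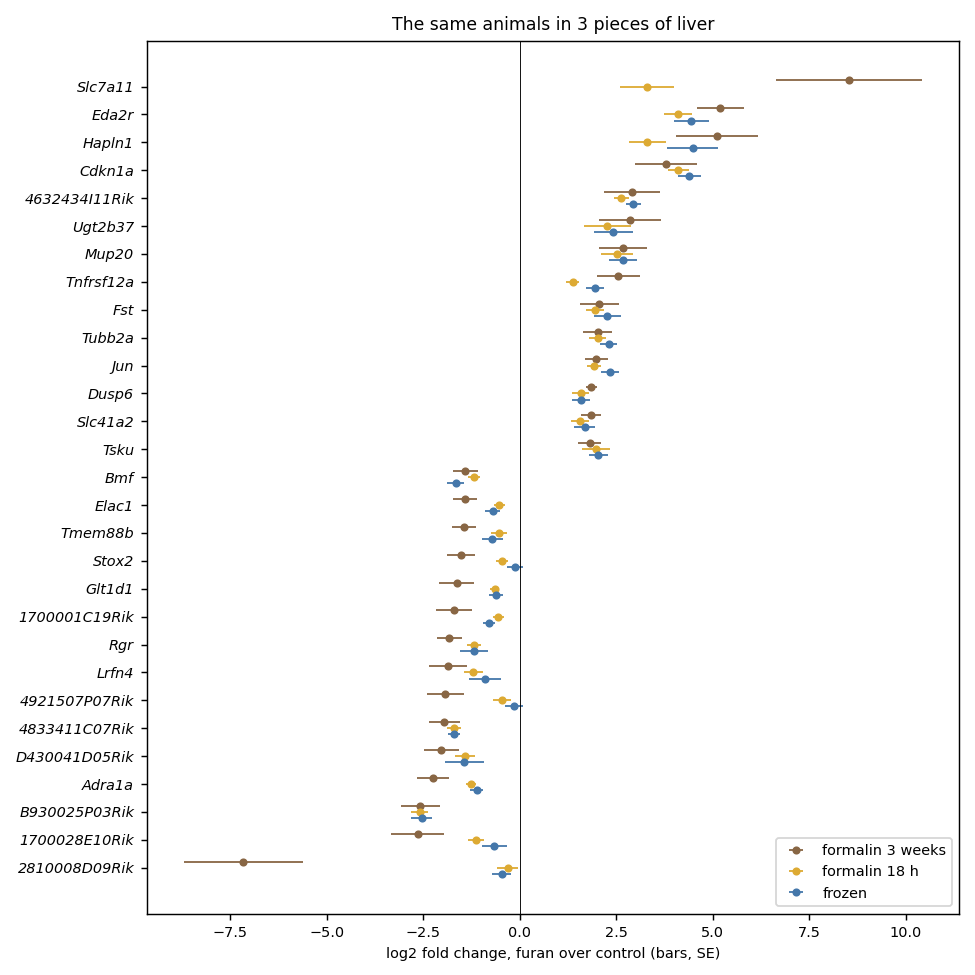
Log2 fold change, furan over control, with its SE for 14 of the largest rises and the 15 largest falls of the 3-week piece (brown), beside the same genes in the 18 h piece (yellow) and the frozen piece (blue) of the same livers. Slc7a11 and 2810008D09Rik have fitted values that rest on groups at or near 0 counts, and Slc7a11 was not tested in frozen tissue. Their 3-week bars are among the longest of the plot, and 2810008D09Rik is the gene of this plot whose difference between pieces passed the test.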

How the data were processed

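Total RNA freed of ribosomal RNA was sequenced from 24 liver pieces, and the 8 kept in formalin for 3 weeks are compared here. The authors deposited 1 table of raw counts per gene, whole numbers with no normalization found in the values. CASAVA 1.8.2, STAR 2.3.0, featureCounts 1.4.4 and build mm9 are named in the submitters' processing notes; the gene models, strand setting and handling of repeated or duplicate reads are not given in the sources used here. Counts were fitted in R 4.3.3 with edgeR 4.0.16 on the 8 libraries (TMM, filterByExpr, robust quasi-likelihood test, two-sided, Benjamini-Hochberg adjustment over all tested genes, adjusted p below 0.05). The SE of a log2 fold change is its size over the square root of F. CPM are TMM-normalized and given as mean ± SD of 4 animals. Libraries held 5.56 to 11 megacounts; floors (3 counts over a group) and 95% intervals cover counting error only.

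The interaction with the other pieces was fitted over all 24 libraries. Pieces share animals, and deviations from the group mean correlated at 0.0211 to 0.118 with the frozen piece and 0.0177 to 0.112 with the 18 h piece of the same animal, which was the best match for 8 and 7 of 8 animals. Furan and control share no animal, so no block enters their comparison. No pair of columns was identical. Named genes are the called genes with the 15 highest and 15 lowest log2 fold changes among those with a mean of at least 1 log2 CPM and no overlap of the groups, the 8 most abundant called genes, up to 4 members of each of 34 lists by smallest p, and the 5 smallest p of each interaction. A few genes that this rule names are not reported here. Further list members and noncoding genes were picked after their values were seen. The comparison, the lists and the rule were chosen with earlier results of these data known. Alternatives were other normalizations, filters and dispersion settings, DESeq2 1.42.0, voom with quality weights from limma 3.58.1, a fold threshold of 1.5, thinning (seed 1), all 24 libraries, and leaving out each library. The scripts were tested on simulated data. Gene classes and promoter windows come from RefSeq GRCm38.p6, matched by symbol (23876 symbols); no coordinates are given in mm9.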

Additional observations from a re-analysis of the deposited data

Results flagged for a closer look

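In 6 of 90 groups of 4 values examined, 1 sample lay far from the other 3 by Dixon's test. Chance flags about 1 in 20 groups of normally distributed values, and this rate need not hold for counts with many values at 0. In the control group these were Hapln1 in animal 3, with 1.04 CPM while the others had 0, and Dusp6 in animal 3, with 32.2 CPM against 49 CPM in the nearest animal. In the furan group they were Cdkn1a in animal 43, with 20.4 CPM against 33.4 CPM in the nearest, Slc41a2 in animal 42, with 57.7 CPM against 44.3 CPM, and 2810008D09Rik in animal 43, with 0.107 CPM while the others had 0. For Hapln1 and 2810008D09Rik the other 3 values were all 0, so any count in the remaining animal would have been flagged. Summed macrophage and Kupffer cell markers were 1150 CPM in control animal 4 and 727 CPM in the nearest control animal.

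The furan effect differed between pieces, by an edgeR interaction, in 1 of the largest rises and falls named in the report. The fitted difference of log2 fold changes, 3 weeks minus the other piece, was -7.01 (frozen) and -7.15 (18 h) for 2810008D09Rik. These values rest on groups at or near 0 counts and depend on the prior count of the fit, so they are no bound on a fold.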

How the results depend on the processing

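The 335 calls (139 higher, 196 lower) were within 1.5 times of that number under 8 settings of normalization, filter, dispersion, thinning and tool, from 299 (dispersion not robust) to 495 (DESeq2, of which 332 were among the 335). A threshold of 1.5-fold left 11 (10 higher, 1 lower), and a fit on all 24 libraries gave 1549 (722 higher, 827 lower, 324 of them among the 335). Leaving out 1 library gave 218 to 280 calls (98 to 126 higher, 120 to 157 lower), with 218, 98 and 120 without furan animal 44. The share of lower genes was 52.8% to 63.0% in all settings but the fold threshold. The difference of the furan effect against the frozen piece, 4 genes, was 2 with the replicate block (animals paired across pieces), 155 with DESeq2 and 0 with only the 16 libraries compared, and 0 (without furan animal 44) to 14 (without control animal 3) with 1 animal left out. Against the 18 h piece, 5 genes became 3 with the replicate block, 144 with DESeq2, 0 with 16 libraries, and 2 (without furan animal 41) to 14 (without control animal 3). The causes were not tested. No called named gene changed direction under any alternative. A few named genes that were not called changed sign between settings, such as Cela1, with log2 fold changes from -0.107 to 0.053. Of 2585 recomputed values of named genes, 2259 kept their side of the threshold. Of the 38 largest and most abundant named genes, 17 kept their call under every alternative but the fold threshold. Few genes below 100 counts were called at this depth and spread between libraries.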
